A study of Saccharomyces cerevisiae with 7 samples.

Results

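The 35 genes described here act at the start of meiosis and in meiotic recombination. They were listed by function, with earlier results of these data already known. For each gene, Spo11-linked breaks were counted in the 500 bp before the start codon and in the open reading frame (ORF), and these windows were set against the same windows of all 5834 protein-coding genes outside chromosome III. The question was whether genes that are active in meiotic prophase have promoters in which Spo11 cuts often. The maps came from CC-seq, which captures DNA fragments that carry a covalently bound protein and reads the 5′ end to which it was attached (a hit). All cells were Saccharomyces cerevisiae of the SK1 background, all were described as sae2∆::kanMX, and all were sampled 6 h after transfer to sporulation medium. Without Sae2, Spo11 stays bound to the break ends. The SPO11+ cells gave 5 biological replicates, the fifth of which was the sum of 2 technical replicates. The spo11-Y135F cells, whose Spo11 lacks the catalytic tyrosine, gave 1 library. Nothing in the labels says that the replicates came from separate cultures, so p-values measure only the spread between these samples.

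During early meiosis, Ime1 and Ume6 switch on a set of genes that are silent in growing cells. Spo11, a relative of topoisomerases, then cuts both DNA strands together with its partner proteins, on chromosomes that are folded along a protein axis. The ends are paired with the homologous chromosome by Dmc1 and its helpers, and the synaptonemal complex and the ZMM proteins turn part of these events into crossovers. In budding yeast, Spo11 cuts mostly in the nucleosome-depleted DNA of promoters. The members cover these steps, with 5 genes of meiotic entry, 9 of break formation, 4 of the chromosome axis, 6 of strand exchange and 11 of synapsis, crossover formation or the first division. For 29 of them transcription is largely limited to meiosis.

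Outside chromosome III the SPO11+ replicates held 3074521 to 8298059 hits and the spo11-Y135F library held 2261838. Densities are given in HpM per bp, which are hits per 1000000 hits outside chromosome III and per base pair. A member window held 36 to 3365 hits in a SPO11+ replicate and 86 to 128 hits in spo11-Y135F. The deletion was looked for in the SAE2 ORF, in the longest stretch almost free of hits in replicates 1 to 4, which was 557 bp long with 0 to 1 hits in each. The first technical replicate of replicate 5 had 1 hit there. The second technical replicate had 15, at 0.0135 HpM per bp against 0.0213 for its median ORF, and spo11-Y135F had 20, at 0.0159 against 0.0884. The hits of these 2 libraries thus go in part against their sae2 label. The control is 1 library and cannot be left out. For the technical replicate, counts without it are given where they differ.

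The promoters of the meiotic genes were not hot as a group. The median density upstream of the 35 members was 0.0982 HpM per bp in SPO11+, against 0.127 for all genes, a ratio of 0.775. This ratio lay below 1 in each of the 5 replicates, at 0.776, 0.708, 0.791, 0.860 and 0.654. In spo11-Y135F the medians were 0.0964 and 0.0920, with a ratio of 1.05. Of the members, 4 lay above the upper quartile of all genes, against a background of 25.0%, and 9 lay below the lower quartile, against 25.0%. In single replicates 4 or 5 members exceeded the upper quartile. By the mean, 14 members lay above the all-gene median, as by definition did 2917 of the 5834 genes. All 5 replicates lay above their all-gene median for 13 members and below it for 21. The share of all genes was not taken for this last count. The mean, which strong hotspots raise, was 0.160 HpM per bp for the members and 0.312 for all genes. The window of an average gene therefore held more hits than that of an average member, although the lower quartiles were alike at 0.0514 and 0.0508.

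**Figure D1:**
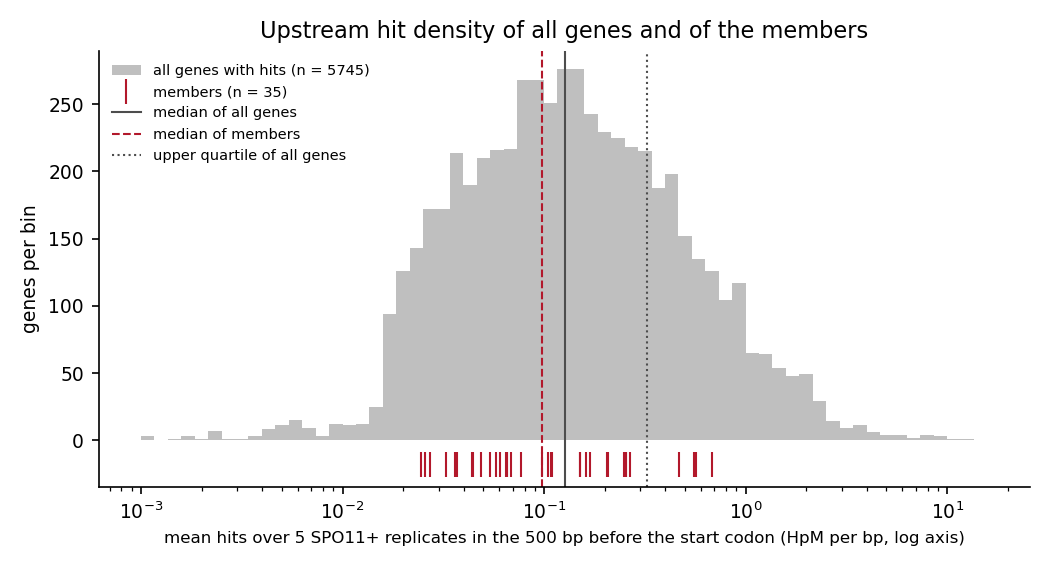
Number of genes (vertical axis) by mean density over 5 SPO11+ replicates in the 500 bp before the start codon (HpM per bp, log axis), for the 5745 genes with hits, with each of the 35 members as a red tick. The members run from 0.0245 to 0.684, while all genes reach 11.7. Of the members, 4 lie to the right of the upper quartile of 0.326. Their median of 0.0982 lies left of the median of all genes.

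Another 50 genes of meiotic entry and recombination, listed by function as well and mostly also used in growing cells, had a median of 0.146 HpM per bp. Of these, 10 lay above the upper quartile and 10 below the lower quartile. Within the members, the 29 genes largely limited to meiosis had a median of 0.0982 and the other 6 had 0.0851. Both medians lay below that of all genes. The order of the members was alike in all replicates, with Spearman's rho between 0.959 and 0.985 over the 35 genes for any pair of replicates, which share the same windows. Against spo11-Y135F, rho over the members was 0.185.

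The genes of meiotic entry held the highest median, 0.249 HpM per bp, over only 5 genes that ranged from the top to the bottom of the list. UME6 encodes the DNA-binding protein that represses early meiotic genes and recruits Ime1 to them. Its window had 0.582, 0.592, 0.482, 0.556 and 0.619 HpM per bp in replicates 1 to 5, with a mean of 0.566, at the 86.1st percentile of all genes, and 0.0884 in spo11-Y135F. Every replicate was more than 5 times the control library's value. The fitted difference on the log2 scale was 2.68 ± 0.27 (SE), with an adjusted p of 3.3e-11 in edgeR's quasi-likelihood test. IME4, which encodes the mRNA methyltransferase needed for meiotic entry, had 0.482, 0.627, 0.590, 0.547 and 0.539 HpM per bp, with a mean of 0.557, and 0.107 in spo11-Y135F. These hits did not lie in an intergenic region. The annotated ORF YGL193C begins 18 bp from IME4 and is read in the other direction, and only 0.120% of the hits in the window fell between these ORFs. The hotspot, on chromosome VII from 141772 to 142190 in Cer3H4L2, has its highest point inside YGL193C.

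IME1 encodes the activator that starts meiosis, and its window had 0.247, 0.283, 0.194, 0.315 and 0.206 HpM per bp (mean 0.249) against 0.109 in spo11-Y135F. All replicates lay above the control library, but the hits gathered at the far edge of the window. Only 10.8% of them lay within 300 bp of the start codon, and the hotspot, on chromosome X from 606004 to 606407, has its highest point 519 bp before it. The intergenic region before IME1 is 2653 bp long, so this hotspot is still closer to IME1 than to RPL43B on the other side. IME2, the kinase that acts after Ime1, had a mean of 0.0658 HpM per bp, with a weak hotspot at its far edge, 520 bp before the start codon. RIM4, which encodes an RNA-binding protein that delays translation in meiosis, stood near the bottom, with 0.0254, 0.0219, 0.0271, 0.0314 and 0.0307 HpM per bp and a mean of 0.0273. Its value of 0.0760 in spo11-Y135F was above every SPO11+ replicate on this scale.

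**Figure D2:**
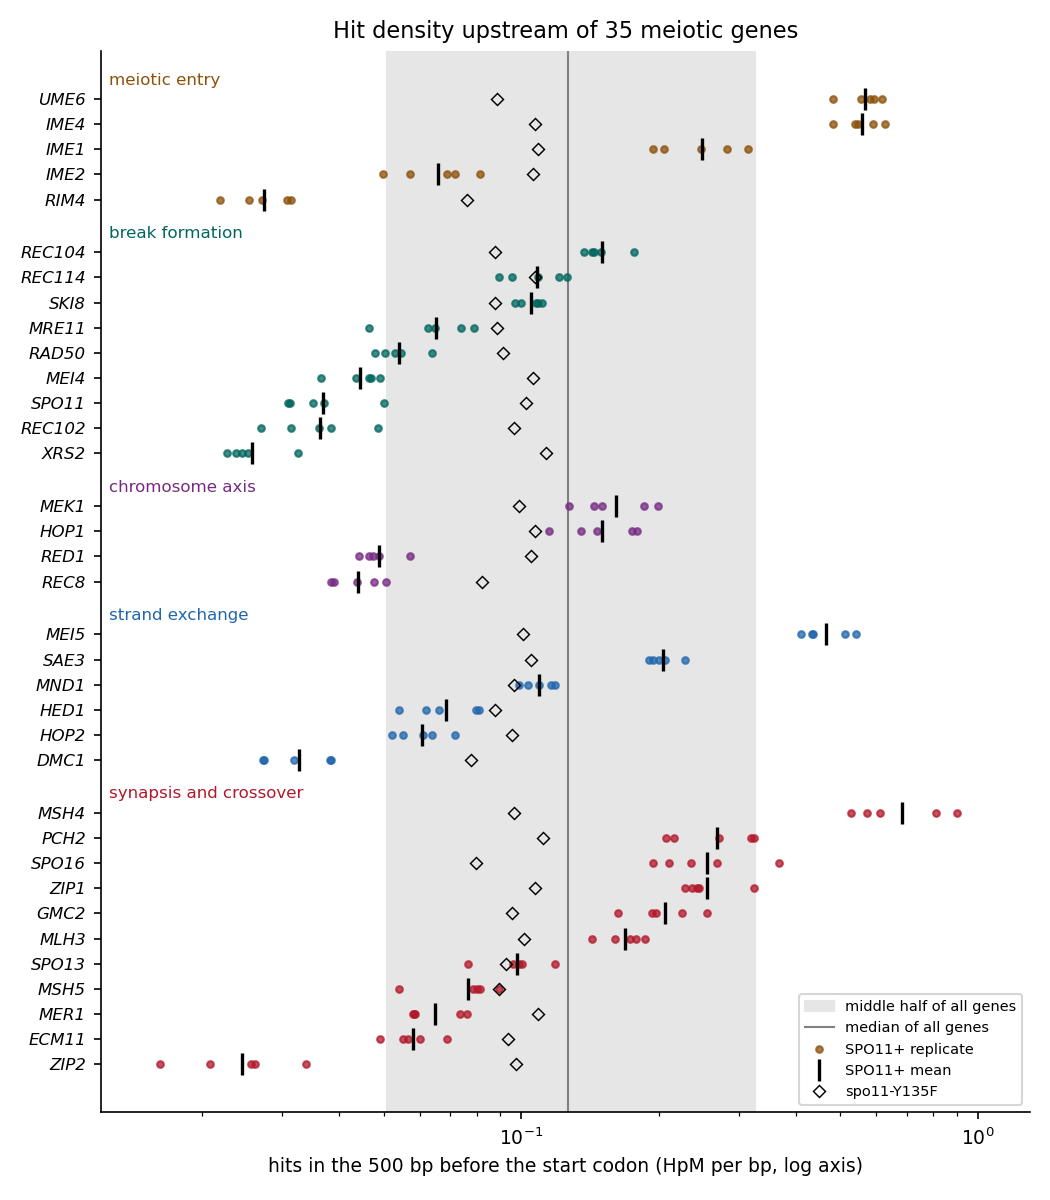
Density in the 500 bp before the start codon of each member (HpM per bp, log axis), ordered by role and mean, with 1 point for each of the 5 SPO11+ replicates, a bar for their mean and a diamond for spo11-Y135F. The SPO11+ means run from 0.0245 (ZIP2) to 0.684 (MSH4), while the diamonds stay between 0.0760 and 0.113, and the break-formation genes lie lowest as a class.

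The genes that make the breaks had the lowest median of the 5 classes, 0.0540 HpM per bp over 9 genes, a ratio of 0.426 to all genes. That ratio was 0.353 to 0.529 in single replicates. Of these 9 genes, 4 (44.4%) faced a neighbour read in the opposite direction, against 60.0% of all members. The part of this orientation in the low median was not tested. SPO11 itself, which encodes the cutting enzyme, had 0.0501, 0.0349, 0.0312, 0.0308 and 0.0371 HpM per bp, with a mean of 0.0368 at the 17.8th percentile. In its ORF the mean was 0.0263. Rec102 and Rec104 form the core complex with Spo11 and Ski8, yet their promoters differed. REC102 had 0.0384, 0.0270, 0.0487, 0.0360 and 0.0313 HpM per bp (mean 0.0363), and REC104 had 0.137, 0.177, 0.145, 0.143 and 0.150, with no overlap between the genes. REC104 was the only one of the 9 whose mean, 0.150, exceeded the median of all genes. SKI8, which also acts in mRNA decay, had a mean of 0.105, and these were the only genes of the class with a hotspot in the window.

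Rec114 and Mei4 bind each other and are needed for cutting. The window of REC114 had a mean of 0.108 ± 0.016 HpM per bp (SD, n = 5) and that of MEI4 had 0.0445 ± 0.0049. The Mre11-Rad50-Xrs2 complex is needed for breaks in budding yeast and processes their ends. MRE11 had 0.0653 and RAD50 had 0.0540, both with all replicates between 0.0465 and 0.0788. XRS2 was lower still, with 0.0325, 0.0227, 0.0253, 0.0244 and 0.0238 and a mean of 0.0257, and its spo11-Y135F value of 0.113 was the highest of all members. Its intergenic region is 201 bp long, and 56.5% of the hits in its window lay in that region.

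The axis genes fell into a higher and a lower pair. MEK1, the kinase that steers repair to the homologue, had a mean of 0.161 ± 0.030 HpM per bp (SD, n = 5), and HOP1, the HORMA-domain protein of the axis, had 0.150 ± 0.027. RED1, the axis protein that binds Hop1, had 0.0488 ± 0.0049, and REC8, the meiotic cohesin subunit, had 0.0438 ± 0.0054. The lowest replicate of the first pair, 0.115, was higher than the highest of the second, 0.0570. In the HOP1 window the hits were concentrated, and its 10 strongest single positions held 52.4% of them, the highest share of all members. HOP1 shares its promoter region of 647 bp with SPO22, a ZMM gene that is read in the other direction.

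In strand exchange, partners differed in density but not in whether a hotspot overlapped their window. Mei5 and Sae3 form one complex that loads Dmc1, and both had a hotspot in the window. MEI5 had 0.513, 0.540, 0.409, 0.433 and 0.436 HpM per bp, at the 82.9th percentile, against 0.101 in spo11-Y135F. SAE3 had 0.207, 0.229, 0.191, 0.201 and 0.194, with a mean of 0.204, and 0.105 in spo11-Y135F. Both hotspots have their highest point close to the start codon, at 123 bp for MEI5 (chromosome XVI, 321657 to 322007) and 86 bp for SAE3. Hop2 and Mnd1, the other helper complex of Dmc1, had means of 0.0607 and 0.109, with no hotspot at either. DMC1, which encodes the meiotic strand-exchange protein, had 0.0273, 0.0272, 0.0381, 0.0384 and 0.0319, with a mean of 0.0326 at the 14.9th percentile. HED1 had a mean of 0.0684.

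Synapsis and crossover genes had a median of 0.169 HpM per bp over 11 genes, a ratio of 1.33 to all genes. MSH4, which encodes a MutS homologue that stabilises crossover intermediates, was the densest of all members. Its replicates had 0.528, 0.811, 0.612, 0.899 and 0.572 HpM per bp, with a mean of 0.684 at the 88.9th percentile, and spo11-Y135F had 0.0964. Replicates 2 and 4 were higher than the others, and all 5 were far above the control library. The log2 difference was 2.83 ± 0.31 (SE), with an adjusted p of 2e-10 in edgeR. Its hotspot on chromosome VI, from 137200 to 137461, is only 262 bp wide. Its strongest position, 121 bp before the start codon, had 21.3 ± 7.75 HpM (SD, n = 5) on the Watson strand and 18.9 ± 5.67 on the Crick strand 1 bp further, with 0 hits in spo11-Y135F. Up to 1000 bp before MSH4, no library had hits beyond about 538 bp. Repeats were removed from the maps, and the next annotated gene, the retrotransposon ORF YFL002W-B, begins 1046 bp away. MSH5, which encodes the partner of Msh4, had 0.0767 ± 0.013, with no replicate above 0.0895, so these partners differed as well.

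PCH2 encodes the ATPase that takes Hop1 off the axis, and its window had 0.217, 0.319, 0.271, 0.324 and 0.208 HpM per bp against 0.111 in spo11-Y135F. SPO16, a ZMM gene, had 0.235, 0.269, 0.195, 0.366 and 0.211 (mean 0.255) against 0.0796. ZIP1, which encodes the central filament of the synaptonemal complex, had 0.237, 0.323, 0.245, 0.242 and 0.228 (mean 0.255) against 0.107. The replicates of these 3 genes overlapped, so their order is not fixed. GMC2, a component of the central element, had 0.255, 0.225, 0.198, 0.163 and 0.193 (mean 0.207) against 0.0955. ECM11, which acts with Gmc2, had a mean of 0.0580, below every replicate of GMC2. The remaining means were 0.169 for MLH3 (crossover resolution), 0.0982 for SPO13 (sister chromatids in the first division) and 0.0649 for MER1 (meiotic splicing). ZIP2, needed to start synapsis, was the lowest member, with 0.0338, 0.0161, 0.0262, 0.0256 and 0.0209 HpM per bp, with a mean of 0.0245 at the 9.53rd percentile.

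UME6, IME4, MEI5 and MSH4 were the only members above the upper quartile. Together they held 40.6% ± 1.46 (SD, n = 5) of the hits in all 35 windows, and 11.6% of these hits in spo11-Y135F. Their lowest replicate, 0.409, was above the highest replicate of any other member, 0.366. The upper quartile of 0.326 HpM per bp fell between the means of MEI5, 0.466, and PCH2, 0.268, and SPO16 exceeded it in replicate 4 alone.

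**Figure D3:**
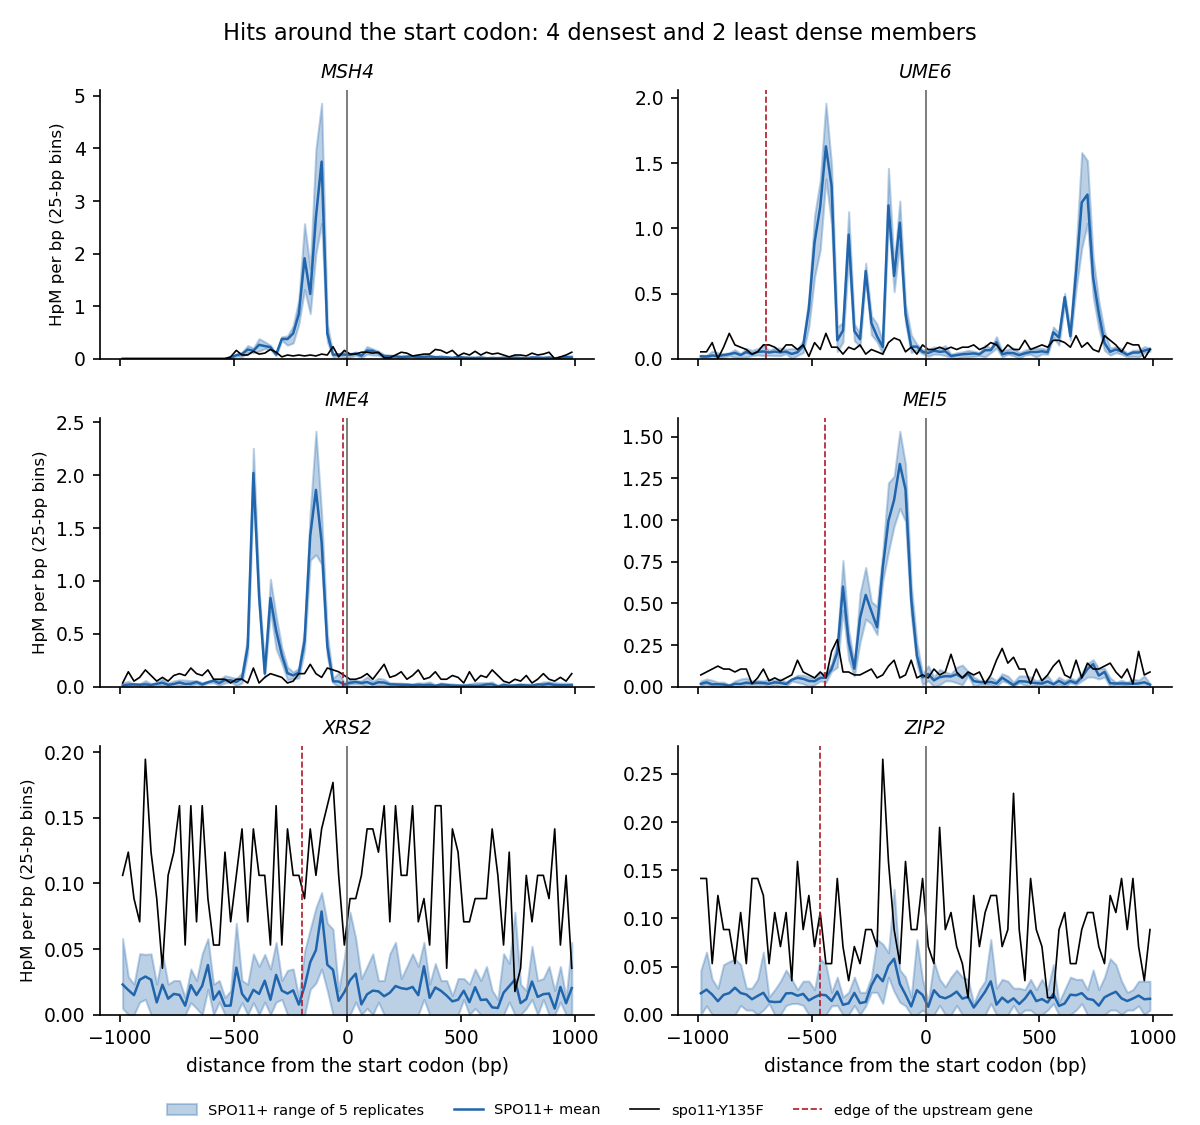
Density in 25-bp bins (HpM per bp) against the distance from the start codon (bp, negative upstream) for the 4 densest and the 2 least dense members, with the mean and range of 5 SPO11+ replicates, spo11-Y135F in black and the edge of the upstream gene dashed where it lies within 1000 bp. MSH4 shows 1 narrow peak near the start codon with a highest bin of 3.75, UME6 and IME4 show several peaks, UME6 has another inside its ORF, and XRS2 and ZIP2 reach 0.0786 and 0.0581 at most upstream.

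Hotspots were taken as stretches of at least 25 bp in which the smoothed mean map exceeded 3 times its mean, and the maps held 2682 of them. One overlapped the window of 16 members (45.7%), against 58.0% of all genes and 30 of the other 50 meiotic genes. By role these were 4 of 5 entry genes, 2 of 9 break-formation genes, 2 of 4 axis genes, 2 of 6 strand-exchange genes and 6 of 11 synapsis and crossover genes. In spo11-Y135F no member had one, and neither did most genes, with 0.0857% overlapping. The member hotspots were of moderate strength. The strongest, before IME1, had 353 ± 85.5 HpM (SD, n = 5) and ranked 500 of 2682, and it held 41.6 HpM in spo11-Y135F. Those of MSH4 (307 HpM, rank 578), UME6 (290 HpM, rank 604) and IME4 (276 HpM, rank 642) followed, and 9 of the 16 ranked below the median hotspot. The weakest, before REC104, had 12.8 HpM.

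Not every hotspot in a member window lay near the member. The highest point was within 300 bp of the start codon for 10 hotspots and farther away for 6, namely those of IME1, IME2, UME6, MEK1, ZIP1 and PCH2. For IME1 (519 bp), IME2 (520 bp), MEK1 (502 bp) and ZIP1 (563 bp) it lay beyond the far edge of the window. Inside the ZIP1 window, however, the smoothed map had its highest point 282 bp before the start codon, at 277 to 286 bp in single replicates. There, 64.9% of the hits in the window lay within 300 bp. With the highest point required inside the window, 12 of 35 members had a hotspot, against 52.7% of all genes. Of the other 50 meiotic genes, 28 then had one. Among all 16 member hotspots, 12 lay in divergent intergenic regions, and 5 of these had their highest point closer to the start codon of the neighbouring gene. The hotspot beside UME6 (chromosome IV, 867584 to 868056) peaked 446 bp from UME6 and 255 bp from MSS4. That beside PCH2 peaked 183 bp from MBA1, that beside MEK1 199 bp from TFB6, that beside ZIP1 453 bp from DPP1 and that beside SKI8 52 bp from VAM7. A hotspot between divergent genes cannot be assigned to either promoter from these maps.

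Members with a divergent neighbour had denser windows than the others. Of the 35 members, 21 faced a neighbour that is read in the opposite direction (divergent) and 14 followed a neighbour on the same strand (tandem). Median densities were 0.150 HpM per bp for the divergent members and 0.0513 for the tandem members. All genes had 0.176 and 0.0893 in these classes, so the members were lower in each. None of the 14 tandem members exceeded the upper quartile, and 3 of them, SAE3, MLH3 and GMC2, had a hotspot (21.4%, against 47.7% of all tandem genes). Among divergent members 13 had one (61.9%, against 67.6%). The share of divergent genes was 60.0% among the members and 52.1% among all genes. The intergenic region had a median length of 600 bp before members and 451 bp before all genes, and its length had a rho of -0.0120 with the density over the 35 members.

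The average over genes was lower for the members than for all genes in 39 of 40 bins of 25 bp upstream of the start codon. In 34 of them the replicates did not overlap. The replicates share the same genes, so this does not measure the spread between genes, and neighbouring bins are not independent. Strong hotspots raise the average of all genes, and MSH4 had 19 bins without hits. The highest 25-bp bin lay 113 bp upstream for the members, at 0.382 HpM per bp with replicates from 0.314 to 0.440, and 188 bp upstream for all genes, at 0.448. At 188 bp the members had 0.191, with a highest replicate of 0.214, against 0.428 in the lowest replicate of all genes. The place of the members' peak rests on MSH4, which had 3.75 at 113 bp. Without it the members' highest bin lay 163 bp upstream, at 0.290, and its place ranged from 113 to 163 bp over the replicates. In spo11-Y135F the members had 0.103 at 113 bp and all genes had 0.0963.

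**Figure D4:**
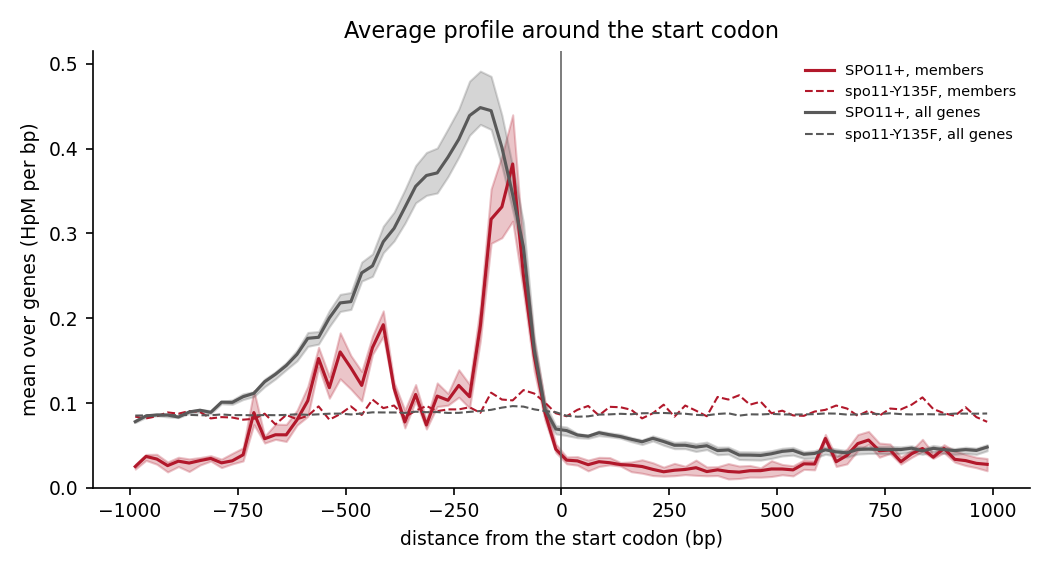
Mean density over genes (HpM per bp, 25-bp bins) against the distance from the start codon (bp) for the 35 members (red) and all genes outside chromosome III (grey), with the range of the 5 SPO11+ replicates shaded and spo11-Y135F dashed. The members peak 113 bp upstream, a place that rests on MSH4, and lie below all genes in 39 of 40 upstream bins, and both dashed lines are flat near 0.1.

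The comparison of each promoter with its own ORF does not depend on how libraries were scaled. In SPO11+ the upstream window was denser than the ORF for all 35 members in edgeR's quasi-likelihood test with the library as a block, against 88.8% of all genes. In 300-bp windows 33 were called, without IME2 and RIM4, against 87.5% of all genes. In 1000-bp windows 32 were called, without SPO11, XRS2 and ZIP2, against 86.4%. The median ratio was 4.91 for the members and 5.68 for all genes. It was 30.7 for IME4 and 28.7 for MSH4, with replicates between 24.5 and 52.7 and between 18.8 and 45.7. The IME4 ratio rests on hits inside YGL193C. In the intergenic part alone, which is only 18 bp long, its log2 difference fell from 4.97 to 0.49 ± 0.52 (SE) and the call was lost. At the other end were ZIP2 at 1.33, XRS2 at 1.34, RIM4 at 1.40 and SPO11 at 1.40. For XRS2 1 replicate had a ratio of 0.966, and the log2 difference was 0.48 ± 0.21 (SE) with an adjusted p of 0.031 in edgeR. The call of ZIP2 was as close, with a log2 difference of 0.43 ± 0.21 and an adjusted p of 0.048. Both calls were lost without the second technical replicate of replicate 5, which left 33 members, against 88.5% of all genes. With 1 replicate left out, 31 to 35 members were called, against 87.4% to 88.5% of all genes. XRS2 was then lost without replicate 1, 2, 4 or 5, ZIP2 without 1, 4 or 5, RIM4 without 4 or 5, and SPO11 without 1 or 5. Replicate 2, the deepest library, had the highest ratio for 31 of the 35 members, with a median ORF density of 0.0135 HpM per bp against 0.0203 to 0.0253 in the other replicates.

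In spo11-Y135F the same ratio lay between 0.811 and 1.31 for every member, with a median of 1.07. All 5 SPO11+ ratios exceeded the control's for 33 members. The share of all genes was not taken for this count, so it does not set the members apart. A fit of the ratio in SPO11+ over the ratio in spo11-Y135F called 30 members higher, against 79.4% of all genes, and none lower. The log2 difference was largest for MSH4, 4.75 ± 0.48 (SE), and IME4, 4.67 ± 0.51, with adjusted p of 1.7e-11 and 1.1e-10 in edgeR. The 5 members that were not called were SPO11 (0.15 ± 0.46), XRS2 (0.32 ± 0.49), ZIP2 (0.32 ± 0.47), MEI4 (0.66 ± 0.45) and RIM4 (0.77 ± 0.48). Their intervals are wide, because the control is 1 library that was assumed to vary like the SPO11+ replicates, and they do not show that these promoters were uncut. RIM4 and MEI4 were called without replicate 2, and REC102 was not called without replicate 3 or 4.

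**Figure D5:**
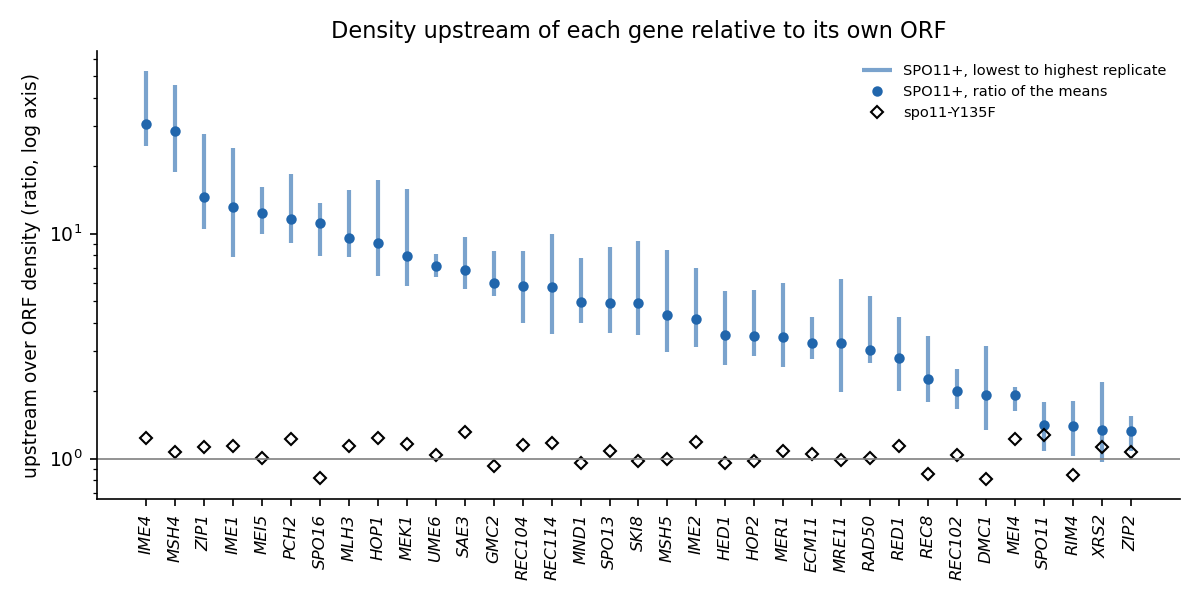
Ratio of the density in the 500 bp before the start codon to that in the ORF (log axis) for each member, with the ratio of the SPO11+ means (point), the range of 5 replicates (line) and spo11-Y135F (diamond). The SPO11+ points run from 30.7 (IME4) to 1.33 (ZIP2), and the diamonds stay between 0.811 and 1.31.

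Compared directly between genotypes at equal totals of hits, the upstream windows of 13 members were higher in SPO11+, against 50.4% of all genes, and those of 14 were lower, against 30.0%. The higher members were UME6, IME4, IME1, REC104, MEK1, SAE3, MEI5, MSH4, PCH2, SPO16, ZIP1, GMC2 and MLH3. MSH5, HED1, SKI8, MND1, SPO13, HOP1, REC114 and MRE11 passed in neither direction, and the rest were lower. This comparison depends on the scale and the window. With TMM factors, which moved the median log2 difference of all genes from 0.50 to -0.04, 9 members were higher, against 39.4%, and 18 lower, against 40.6%. REC104, MEK1, SAE3 and MLH3 then lost their call, and MSH5, HED1, MRE11 and REC114 gained a lower call. MSH5, HED1 and MRE11 gained it with DESeq2 as well. In windows of 1000 bp 9 members were higher, against 42.3% of all genes, and 17 lower, against 39.7%. The direction turned there for IME2, RAD50 and MLH3, and REC104, MEK1, SAE3 and GMC2 lost their call. HED1 and MSH5 were among those that gained a lower call there. In windows of 300 bp RAD50, MEK1, REC8, HOP2 and ECM11 lost their call, and SKI8 and HOP1 gained a higher call. IME1 was lower in SPO11+ there, with a log2 difference of -1.13. In the intergenic part alone SKI8 was called higher, and IME4 had -1.55, but its part is only 18 bp long. HOP1 was also called higher without replicate 3 or 5 or the second technical replicate of replicate 5. MRE11 was also called lower without replicate 5. The paper states that no Spo11 breaks arise in spo11-Y135F cells, so the control's hits do not count such breaks. A value below the control at equal totals therefore does not say that fewer cuts were made there. Of the other 50 meiotic genes, 30 were higher and 15 lower at equal totals.

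The ORFs of the members had densities near those of other genes. The median was 0.0194 HpM per bp in SPO11+, against 0.0206 for all genes, and 0.0907 in spo11-Y135F, against 0.0884. At equal totals 34 members were lower in SPO11+, against 90.0% of all ORFs, and none was higher. UME6 was the exception, with a log2 difference of -0.11 ± 0.30 (SE). Its ORF had 0.0791 ± 0.0084 HpM per bp (SD, n = 5), at the 93.9th percentile, with a peak in the bin centred 712 bp after the start codon that reached 1.26, with replicates from 1.04 to 1.52. With TMM factors, UME6 was the member called higher, against 15.0% of all ORFs.

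The strands were used about equally in most windows. The Watson strand took 50.5% of the hits in the median member and 50.1% in the median gene. The members below 40% were IME1, IME4 and MEI4, and those above 60% were MSH5, IME2 and, by less than 1 percentage point, GMC2. IME1 had 31.2% on the Watson strand, with replicates from 28.7% to 35.7%, and IME4 had 33.5%, from 31.4% to 35.7%. The opposite bias was seen at MSH5, with 69.8% and replicates from 61.4% to 75.1%. In these 3 windows no replicate crossed 50%. At IME1 the strongest position had 10.4 ± 1.82 HpM (SD, n = 5) on the Crick strand, against 3.27 ± 1.04 at the position on the Watson strand with which it pairs 1 bp away.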

How the data were processed

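Per the labels, hits of CC-seq were mapped with Bowtie2. The authors deposited unscaled hit counts at each base of both strands of Cer3H4L2 for 7 libraries, after removing repeats, telomeres and rDNA. They also deposited an average map of SPO11+ in HpM (a signal), used here only as an alternative, with its Crick positions moved up by 1 bp. The technical replicates of replicate 5, labelled sae2 although their map names say WT, were summed. Gene positions came from a table of assembly R64 and are not printed. Strands came from locus tags. Chromosome III, with added loci, was left out. A promoter was taken as the 500 bp before the start codon, whatever it overlaps, and windows of divergent genes overlap each other.

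Counts were tested with edgeR 4.0.16 (quasi-likelihood, total hits as library size, at least 10 hits, Benjamini-Hochberg over all genes, level 0.05), beside limma 3.58.1 and DESeq2 1.42.0 in R 4.3.3. A gene's windows shared a library block. Hotspots were called after smoothing with a Hann kernel (reach 100 bp either way), with an extent of at least 25 bp and merging under 200 bp. Percentiles, medians, figures and 95% Wilson intervals were made with Python 3.11.15. PCR copies cannot be told from molecules, so counting intervals cover counting error only. In simulated data at 3-fold, 98.5% of changed windows were recovered between genotypes (5721 genes) and 100% between window and ORF (5634 genes). At 1.5-fold the shares were 2% and 59%. The simulation set the same spread for every window, left out sparse windows and changed only a small part of the genes. These shares therefore do not give the recovery in the real data.

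All 35 members are named with their mean, and every replicate is given for the 10 highest and 5 lowest by upstream density. SPO11 and REC104 were added after their values were seen, as were other details named for a single member. The members and lists were chosen with earlier results of these data known, so no test over the list was made. Alternatives were the scaling, tool, window, threshold, masked length, input map and each replicate left out. The fit of the ratio between genotypes, replicate 5 from 1 technical replicate and the omission of masked genes were chosen after seeing the data. Pairs of biological replicates differed beyond counting noise, with chi-square per degree of freedom over windows of 5.59 to 15.8, and the technical pair had 1.64. A planned motif search and promoter sequences are not given, since no genome sequence was used here.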

Additional observations from a re-analysis of the deposited data

Results flagged for a closer look

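For 4 of 70 sets of 5 replicates (35 upstream windows and 35 ORFs), 1 SPO11+ replicate stood apart from the others by Dixon's criterion. Chance alone gives about 1 in 20. Upstream of ZIP1, replicate 2 had 0.323 HpM per bp, against 0.228 to 0.245 in the others. Upstream of XRS2, replicate 1 had 0.0325, against 0.0227 to 0.0253. In the REC102 ORF replicate 2 had 0.0108, against 0.0188 to 0.0206, and in the REC104 ORF replicate 1 had 0.0344, against 0.0211 to 0.0247. Replicate 2 also had the lowest median ORF density of all replicates, 0.0135 HpM per bp, and its part in these values was not tested.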

How the results depend on the processing

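No paired analysis was possible between genotypes because SPO11+ and spo11-Y135F share only replicate number 1. In the comparison of window and ORF, without the library block, 33 members were called in place of 35, and XRS2 and ZIP2 were lost. With a replicate left out, 31 to 35 were called there, against 87.4% to 88.5% of all genes. Upstream in SPO11+, 13 to 14 members were then higher, against 49.2% to 51%, and 14 to 15 lower, against 29.5% to 30.2%. A higher ratio than the control was called for 29 to 32, against 77.3% to 82.4%. A hotspot overlapped 15 to 16, against 57.2% to 58.4%. Above the upper quartile lay 4 members, and the ORF count was 34 lower and 0 higher in each of these fits, while the median density ran from 0.0930 to 0.104 HpM per bp. With TMM factors 1 member ORF was higher and 0 were lower. The median density was 0.0664 in 1000-bp windows, against 0.0906 for all genes. Under all settings tried, 4 to 6 members exceeded the upper quartile. At 2 and 5 times the mean, 20 and 13 members had a hotspot, against 67.5% and 44.0% of all genes. With the highest point required inside the window, 12 members had one, against 52.7% of all genes. The direction between genotypes turned for IME1 in 300-bp windows (-1.13 on the log2 scale), and in 1000-bp windows for IME2 (0.35), RAD50 (0.87) and MLH3 (-0.014). It also turned for IME4 in the intergenic part alone (-1.55), which is only 18 bp long and held 0.120% of the hits in its window. Outside these, no called member turned under the settings tried. Weak members are limited by depth, since a SPO11+ replicate held as few as 36 hits in a member window, and the control by its single library.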
